A study of Mus musculus with 36 samples.

Results

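A set of 8 transcripts, called here the Tet2KO-gained transcripts, was followed through RNA sequencing of blood stem and progenitor cells in which Tet2 or Dnmt3a had been deleted. They were chosen by identifier from earlier results of these same data, as transcripts near absent in Control and present in Tet2KO stem cells. They make up 8 of the 138835 transcripts in the deposited table, and all 8 were among the 26820 transcripts with enough counts to test. Passing that filter was open to them through the Tet2KO libraries alone, in which they are high by choice. The levels in Control and Tet2KO stem cells chose the members, and they are given below as a description. Where a count of calls stands beside them, it is set against the share of all transcripts called and nothing is read from it. The choice came with no numeric cut-off. Among the 8, the highest Control stem cell mean was 4.39 CPM, counts per 1000000 scaled counts, and the lowest Tet2KO stem cell mean was 4.93 CPM, in different transcripts.

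The libraries came from hematopoietic stem cells (HSCs), sorted as Lin-, cKit+, Sca1+, CD150+, CD48- cells, and from restricted progenitors (RPs), which differ from them in the sort by lacking CD150 and carrying CD48. All mice were C57BL/6, aged 8 weeks, and carried the Vav-CRE driver, which acts in blood-forming cells. Control mice had wild-type Dnmt3a and Tet2 with that same driver, Dnmt3aKO mice had floxed Dnmt3a (the labels write fl/fl or +), and Tet2KO mice had Tet2 fl/fl. There were 3 Control HSC, 3 Dnmt3aKO HSC, 4 Tet2KO HSC, 4 Control RP and 4 Tet2KO RP libraries. No Dnmt3aKO RP library was analysed here. Each library is a pool of male and female mice, with pool sizes that differ within the labels, so spreads and p-values measure differences between pools.

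DNMT3A adds methyl groups to cytosine in DNA, and TET2 oxidises methylated cytosine, a step toward its removal. Both enzymes act in blood stem cells, and loss of either is a frequent early event in clonal expansion of blood cells. DNA methylation near a gene's start is commonly linked to silencing, and stem cells give rise to restricted progenitors as they lose self-renewal.

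The table names transcripts by Ensembl identifier, and the sources used here do not pair these identifiers with genes. The transcripts are therefore given by identifier, with no gene role, location or sequence. For the same reason neither the markers of the sorted cells nor Dnmt3a and Tet2 themselves were checked. Reads from exons shared by several transcripts, near-identical copies or overlapping genes cannot be assigned with certainty. Levels are CPM after scaling for library composition, are not per length, and are compared only between libraries for the same transcript. In sorted bulk samples, fewer cells that make a transcript and less RNA per cell cannot be told apart.

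Library totals ran from 3721009 to 9366421 counts. At an equal depth of 3721009 counts, the HSC libraries numbered 4 gave the fewest transcripts of their group: 31276 in Control, 25496 in Dnmt3aKO and 33540 in Tet2KO HSCs. Dnmt3aKO HSC replicate 4 was thus the lowest of all 18 libraries, and edgeR fold changes that rest on it are given with and without it. The DESeq2 fit was not run without it. RP libraries are lettered a to d, and the letters pair with nothing. The 8 transcripts together took between 0.000525% and 0.000867% of the counts in Control HSCs and between 0.0514% and 0.0721% in Tet2KO HSCs. The corresponding shares in RPs were 0.000850% to 0.00128% in Control and 0.0347% to 0.0590% in Tet2KO.

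**Figure D1:**
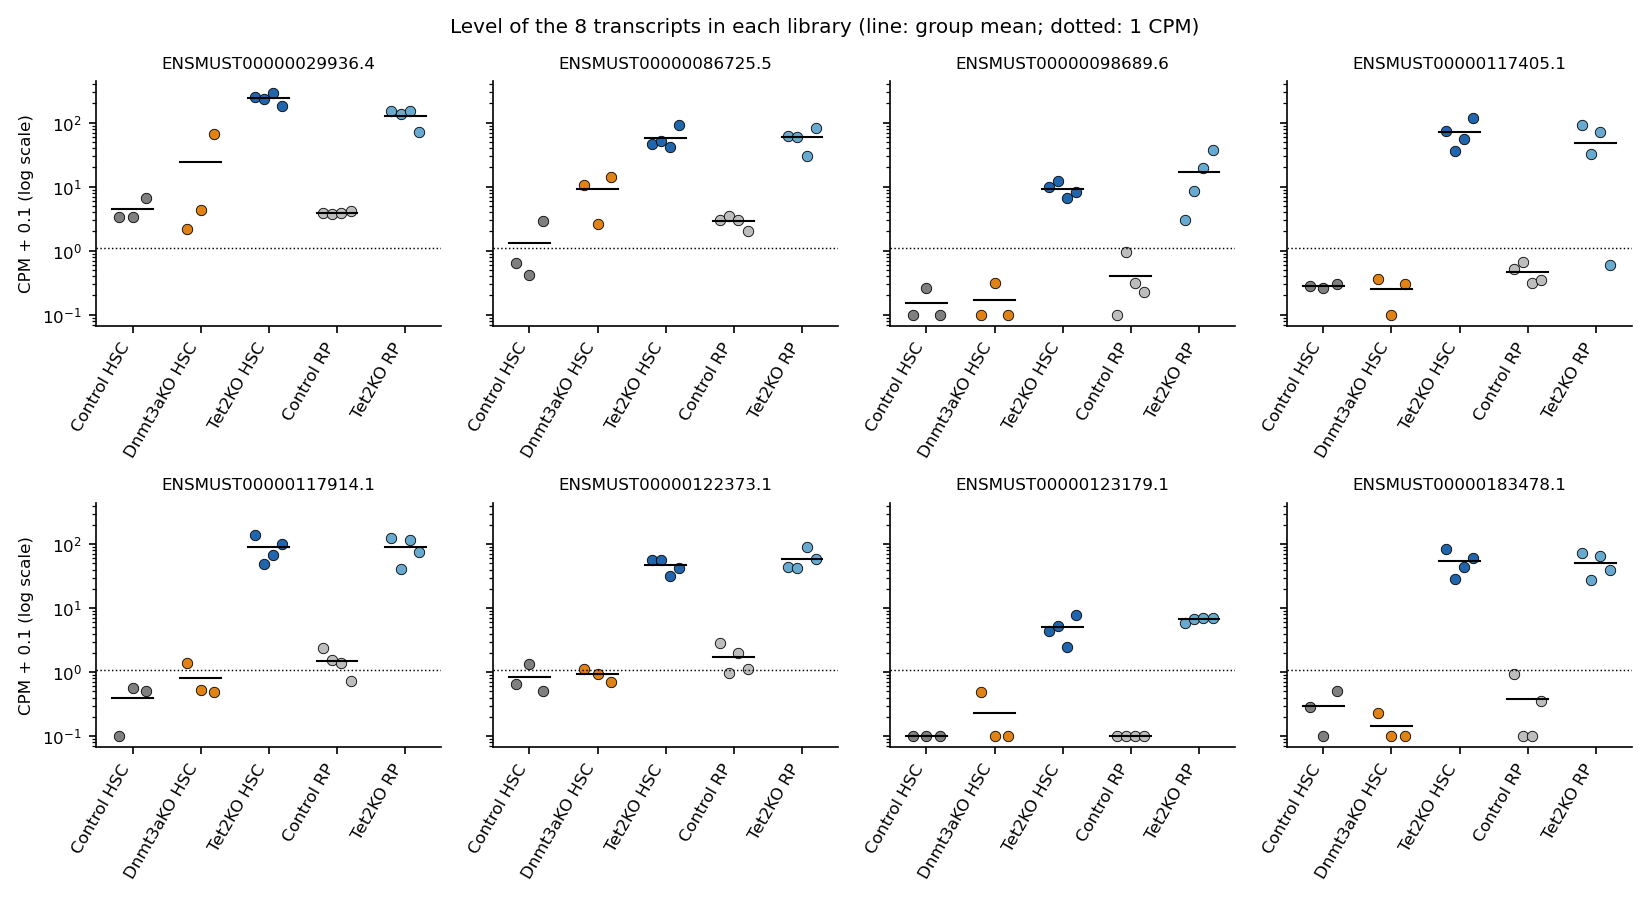
Each panel shows 1 transcript, with CPM plus 0.1 on a log axis for the 5 groups; points are libraries, bars are group means and the dotted line marks 1 CPM. Tet2KO libraries of both cell types sit far above Control, except ENSMUST00000117405.1 in Tet2KO RP replicate d at 0.487 CPM, and ENSMUST00000029936.4 has 1 high Dnmt3aKO library at 65.9 CPM.

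With 1 CPM as the level for calling a transcript on in a library, 5 of the 8 were off in every Control HSC library and on in every Tet2KO HSC library. Among all tested transcripts, 1.07% had that pattern. The choice of members used these libraries, so nothing is read from the difference. Among these, ENSMUST00000098689.6, ENSMUST00000123179.1 and ENSMUST00000183478.1 (3 of the 8) had the same off and on pattern in RPs, which 0.328% of tested transcripts had, and so in both cell types, which 0.0559% had.

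ENSMUST00000123179.1 was the sole transcript of the 8 without a count in any Control library. It had 0 counts in all 3 Control HSC and all 4 Control RP libraries, which allows a level of up to 0.178 CPM over the Control HSC libraries and 0.144 CPM over the Control RP libraries (3 counts over the group). It stood at 4.37, 5.08, 2.40 and 7.86 CPM in Tet2KO HSC replicates 1 to 4, and at 5.80, 6.71, 6.81 and 6.99 CPM in Tet2KO RP libraries a to d. No Control library reached any Tet2KO library. Against the floor, Tet2KO HSCs were at least 24.9-fold higher and Tet2KO RPs at least 46.0-fold higher. The Tet2KO levels rest on 26 to 43 counts per library. The 4 Tet2KO RP libraries lay within 1.20-fold of each other, the narrowest range of any of the 8 transcripts in either Tet2KO group.

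ENSMUST00000183478.1 was at 0.183, 0 and 0.400 CPM in Control HSC replicates 2, 3 and 4, and at 84.5, 28.8, 43.7 and 59.8 CPM in Tet2KO HSC replicates 1 to 4. The Control HSC group held 3 counts in all, and the pooled ratio of Tet2KO to Control HSCs was 283, with an exact 95% counting interval from 96.6 to 1373. In RPs it was at 0.845, 0, 0 and 0.253 CPM in Control and at 73.8, 27.0, 65.3 and 39.8 CPM in Tet2KO. The groups did not overlap in either cell type. The pooled RP ratio was 172 (interval 78.8 to 469.9).

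ENSMUST00000098689.6 was the other transcript with that pattern in both cell types. Control HSC replicates 2, 3 and 4 held 0, 0.157 and 0 CPM, a single count in the group, and Tet2KO HSC replicates 1 to 4 held 9.91, 12.0, 6.64 and 8.26 CPM. The pooled HSC ratio of 152 is loosely set by that count, with an interval from 27.1 to 6030. Control RP libraries held 0, 0.854, 0.212 and 0.126 CPM, and Tet2KO RP libraries 2.90, 8.39, 19.5 and 37.9 CPM. The groups stayed apart in RPs, where the ratio was 77.1 (32.8 to 239), but the Tet2KO RP libraries themselves spread 13.0-fold.

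ENSMUST00000117405.1 was off in every Control library and had the widest Tet2KO spread of the 8. Each Control HSC library held exactly 1 count, or 0.183, 0.157 and 0.200 CPM, and Tet2KO HSC replicates 1 to 4 held 74.9, 36.1, 56.4 and 117 CPM. The pooled ratio was 363 (interval 124 to 1760). Control RP libraries held 0.423, 0.570, 0.212 and 0.253 CPM. Tet2KO RP libraries a, b and c held 90.6, 31.9 and 72.1 CPM, while library d held 3 counts, or 0.487 CPM, inside the Control RP range. The Tet2KO RP libraries thus spread 186-fold, and this was the sole transcript of the 8 whose RP groups overlapped. Its pooled RP ratio was 131 (63.4 to 327). The other 7 transcripts were on in library d.

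ENSMUST00000117914.1 was off in all Control HSC libraries, at 0, 0.470 and 0.400 CPM, and on in Tet2KO HSC replicates 1 to 4, at 140.2, 48.8, 68.7 and 100.5 CPM. The pooled HSC ratio was 279 (interval 119 to 859). Control RP libraries held 2.32, 1.42, 1.27 and 0.632 CPM, so that 3 of 4 were on. These Control levels rest on 5 to 11 counts per RP library and 0 to 3 counts per HSC library. Tet2KO RP libraries held 124.9, 40.8, 115 and 74.9 CPM, all above Control, at a pooled ratio of 66.2 (45.3 to 101).

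The remaining 3 transcripts had measurable levels in Control HSCs. ENSMUST00000122373.1 was at 0.549, 1.25 and 0.400 CPM in Control HSC replicates 2, 3 and 4 and at 56.1, 56.8, 31.8 and 41.7 CPM in Tet2KO HSC replicates 1 to 4. In RPs it was at 2.75, 0.854, 1.90 and 1.01 CPM in Control and at 44.2, 42.3, 89.2 and 58.0 CPM in Tet2KO. No Tet2KO library overlapped a Control library of its cell type. The pooled ratio was 58.5 (34.1 to 110.2) in HSCs and 36.4 (25.8 to 53.2) in RPs.

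ENSMUST00000086725.5 was at 0.549, 0.313 and 2.80 CPM in Control HSC replicates 2, 3 and 4, on in replicate 4 alone. Tet2KO HSC replicates 1 to 4 held 45.7, 52.3, 41.4 and 92.5 CPM. It was on in every Control RP library, at 2.96, 3.42, 2.96 and 1.90 CPM, and Tet2KO RP libraries held 61.4, 60.7, 30.2 and 83.8 CPM. The groups did not overlap. Its pooled ratio was 47.6 (30.4 to 79.3) in HSCs and 23.2 (17.8 to 31.0) in RPs, the lowest RP ratio of the 7 transcripts with a ratio.

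ENSMUST00000029936.4 goes against the description of the set as near absent in Control, since it was on in all 18 libraries. Control HSC replicates 2, 3 and 4 held 3.30, 3.29 and 6.60 CPM, and Control RP libraries held 3.80, 3.70, 3.81 and 4.05 CPM. Tet2KO HSC replicates 1 to 4 held 254, 238, 296 and 181 CPM. Tet2KO RP libraries held 151, 139, 151 and 71.3 CPM. The Control libraries of the cell types overlapped, and both Tet2KO groups stood clear of them, at pooled ratios of 59.1 (46.9 to 75.6) in HSCs and 31.9 (25.6 to 40.3) in RPs.

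Over the 8 transcripts, every Tet2KO HSC library lay above every Control HSC library in 8 of 8, against 5.31% of tested transcripts. In RPs this held for 7 of 8, against 2.7%. In the edgeR quasi-likelihood fit over all transcripts, 8 of 8 were called higher in Tet2KO than in Control HSCs, where 0.134% of tested transcripts were, and 8 of 8 in RPs, where 0.0932% were. The HSC contrast chose the members, and their working name already includes progenitors, so nothing is read from these counts. The HSC count was 4 of 8 with HSC libraries only, and 5 of 8 without Control HSC replicate 2 or without replicate 3. Over all tested transcripts those fits called 15 of 23632, 18 of 30019 and 24 of 29790 in either direction. The main fit called 53 of 26820. The median fitted log2 fold change was 7.36 in HSCs and 5.97 in RPs, or 6.38 and 5.73 with transcripts lacking Control counts set at their bound. The medians over all tested transcripts were 0.10 and 0.03.

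The count of members on per library is a description too, since levels in Control and Tet2KO HSCs chose the members. Nothing is read from it. Tet2KO HSC libraries had all 8 on, and Tet2KO RP libraries 7.75 ± 0.50 (SD, n = 4). Control HSC libraries had 1.67 ± 0.58 (n = 3) on and Control RP libraries 3.50 ± 0.58 (n = 4). Dnmt3aKO HSC libraries, at 2.67 ± 1.15 (n = 3), overlapped both Control groups.

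The Dnmt3aKO HSC libraries took no part in the choice of members, although the Control HSC libraries they are compared with did. None of the 8 transcripts was called in Dnmt3aKO against Control HSCs in the edgeR fit at an adjusted p of 0.05. Among all 26820, 4 were called (0.0149%), 1 of them higher (0.00373%). At an unadjusted p under 0.05, 2 of the 8 were higher, against 3.88% of all tested transcripts. Those 2 were ENSMUST00000029936.4 and ENSMUST00000086725.5, both among the 3 with measurable levels in Control HSCs. The members were chosen for low Control HSC levels, which favours higher values in Dnmt3aKO, so nothing is read from this count. With DESeq2, which called 0.663% of all tested transcripts, 1 of the 8 was called, ENSMUST00000086725.5, at an adjusted p of 0.00448. In no transcript of the 8 did all Dnmt3aKO libraries lie above all Control HSC libraries, a pattern that 3.88% of tested transcripts had. In an edgeR fit of Control and Dnmt3aKO HSCs alone, only 2 of the 8 passed the filter. Neither was called, and 0 of the 18591 transcripts tested there were. The other members entered the main test only through the other groups, so their lack of a call says little.

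**Figure D2:**
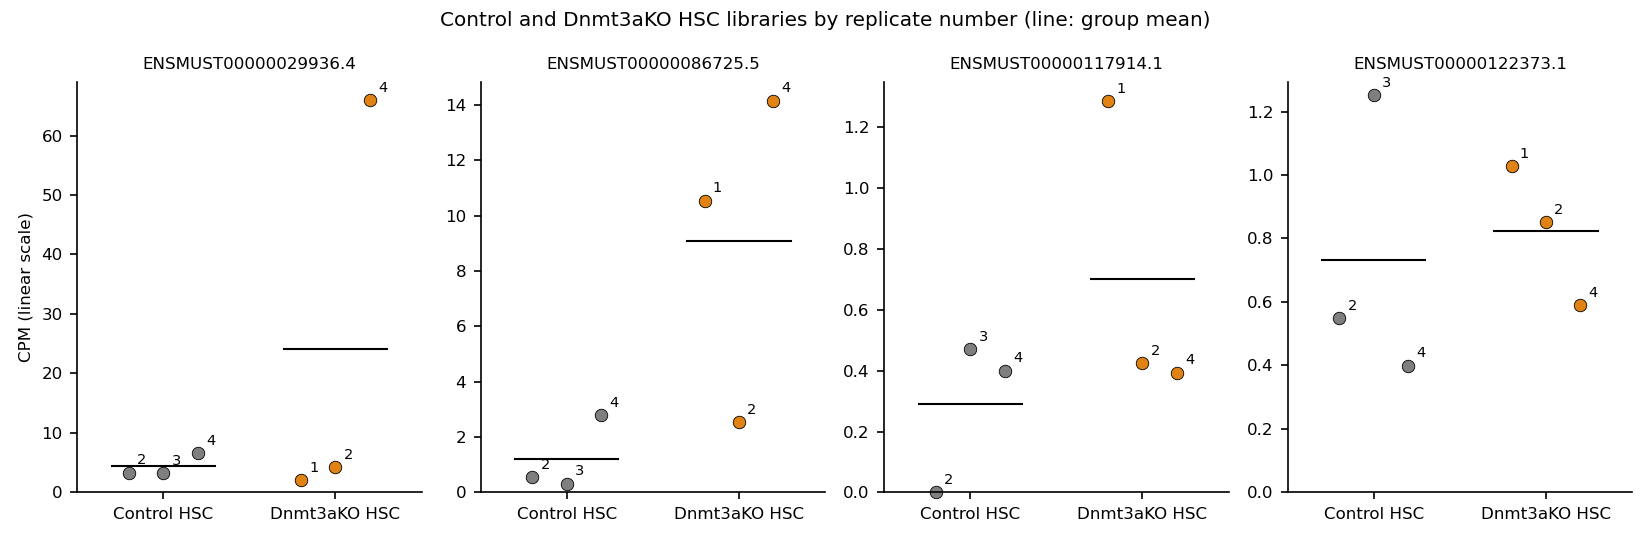
CPM on a linear axis for the 4 transcripts with more than 3 counts in both Control and Dnmt3aKO HSCs; points are libraries labelled with their replicate number and bars are group means. The Dnmt3aKO mean of ENSMUST00000029936.4 is carried by replicate 4 at 65.9 CPM, while ENSMUST00000086725.5 is at 10.5 and 14.2 CPM in replicates 1 and 4.

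ENSMUST00000086725.5 was at 10.5, 2.55 and 14.2 CPM in Dnmt3aKO HSC replicates 1, 2 and 4, against 0.549, 0.313 and 2.80 CPM in Control HSC replicates 2, 3 and 4. Dnmt3aKO replicates 1 and 4 lay above all Control libraries, and replicate 2 lay just under Control replicate 4. The log2 fold change was 2.93 (SE 0.68) with an unadjusted p of 0.000381 and an adjusted p of 0.221 in edgeR. Without Dnmt3aKO replicate 4 the fold change was 2.50 on the log2 scale (edgeR adjusted p = 0.311). Without Control replicate 4 it was 4.36 (edgeR adjusted p = 0.0845). In Control, Dnmt3aKO and Tet2KO HSCs alike, the library numbered 4 held the highest scaled level of this transcript. As an unscaled share of the library's counts, Dnmt3aKO replicate 1 was above replicate 4 (0.001137% and 0.001045%). The libraries numbered 4 are also those of their groups with the fewest transcripts detected. The part of this in the result was not tested beyond leaving them out. The transcript was then again higher and not called (edgeR adjusted p = 0.145).

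ENSMUST00000029936.4 was at 2.06, 4.25 and 65.9 CPM in Dnmt3aKO HSC replicates 1, 2 and 4. Replicates 1 and 2 lay within or below the Control HSC range of 3.29 to 6.60 CPM, and replicate 4 lay far above it. The log2 fold change of 2.45 (SE 0.80) had an unadjusted p of 0.00633 and an adjusted p of 0.471 in edgeR. Without Dnmt3aKO replicate 4 it was -0.50 (adjusted p = 0.862), so a single library sets both its size and its sign. That library still lay 2.74-fold under the lowest Tet2KO HSC library.

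None of the other 6 transcripts had an unadjusted p under 0.05 in this comparison. ENSMUST00000117914.1 held 1.28, 0.425 and 0.393 CPM in Dnmt3aKO replicates 1, 2 and 4, with 1 of 3 libraries above the Control range, and a log2 fold change of 1.30 (SE 0.86, edgeR adjusted p = 0.810). ENSMUST00000122373.1 held 1.03, 0.850 and 0.590 CPM, all inside the Control range, and a fold change of 0.15 (SE 0.58, edgeR adjusted p = 0.998) on the log2 scale. Its pooled ratio of 1.11 has a counting interval from 0.491 to 2.53. ENSMUST00000098689.6, ENSMUST00000117405.1, ENSMUST00000123179.1 and ENSMUST00000183478.1 had at most 3 counts over all Dnmt3aKO libraries and at most 3 over all Control HSC libraries, so no fold is given. For ENSMUST00000123179.1 the 3 Dnmt3aKO counts were all in replicate 1, at 0.385 CPM.

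Set against Tet2KO instead, every Dnmt3aKO HSC library lay below every Tet2KO HSC library for 8 of 8 transcripts, against 4.77% of tested transcripts. In edgeR 5 of the 8 were called lower in Dnmt3aKO, against 0.0932% of tested transcripts. Without Dnmt3aKO replicate 4, 4 of the 8 were called, and 9 of all 29855 tested transcripts in either direction. The Tet2KO side of this comparison chose the members for being high, so the counts are a description and nothing is read from them. The 5 were ENSMUST00000098689.6, ENSMUST00000117405.1, ENSMUST00000117914.1, ENSMUST00000122373.1 and ENSMUST00000183478.1, and their mean Dnmt3aKO level was at most 1.77% of the Tet2KO HSC mean. For ENSMUST00000183478.1 the Tet2KO libraries held 1512 counts and the Dnmt3aKO libraries 1. For ENSMUST00000122373.1 they held 1355 and 15.

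The 3 that missed the threshold were ENSMUST00000029936.4, ENSMUST00000086725.5 and ENSMUST00000123179.1. DESeq2 called all 8 lower, and 2.15% of all tested transcripts in either direction. The Dnmt3aKO mean was 9.95% of the Tet2KO HSC mean for ENSMUST00000029936.4, or 24.1 ± 36.2 against 242 ± 47.6 CPM (SD, n = 3 and 4). Without Dnmt3aKO replicate 4 it was 1.30%, or 3.15 CPM (n = 2). For ENSMUST00000086725.5 it was 15.7%, or 9.08 ± 5.94 against 57.9 ± 23.4 CPM, and 11.3% without that library. For ENSMUST00000123179.1 it was 2.61%, from 3 counts in Dnmt3aKO and 133 in Tet2KO HSCs.

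Between the Tet2KO cell types, none of the 8 was called in Tet2KO RPs against Tet2KO HSCs in edgeR, where 1.81% of all tested transcripts were, and none had an unadjusted p under 0.05. The Tet2KO HSC levels chose the members, so these values are a description. The log2 fold changes ran from -0.92 to 0.90, with a median of 0.01 beside 0.02 over all tested transcripts. ENSMUST00000029936.4 was the sole transcript whose Tet2KO groups stood apart, with every RP library below every HSC library, as in 4.08% of tested transcripts. Its means were 128 ± 38.2 CPM in RPs and 242 ± 47.6 CPM in HSCs (SD, n = 4 each), and its log2 fold change was -0.92 (SE 0.62). It was called without the HSC libraries numbered 4, a fit that called 638 of 28525 tested transcripts. The means of ENSMUST00000117914.1, 88.9 ± 38.7 CPM in RPs and 89.5 ± 39.9 CPM in HSCs, were nearly equal.

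The difference of the Tet2KO effect between cell types was fitted as an interaction. Its HSC side is the contrast that chose the members, so the HSC effect is large by choice and nothing is read for them from the fit. None of the 8 and none of the 26820 transcripts was called in edgeR (0% at an adjusted p of 0.05), while 5.35% had an unadjusted p under 0.05. DESeq2 called 14 transcripts (0.0567%) and none of the 8. The Control level of ENSMUST00000117914.1 was 0.290 ± 0.253 CPM in HSCs and 1.41 ± 0.698 CPM in RPs (SD, n = 3 and 4).

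The 8 transcripts were high and low together across genotypes, but mostly not from library to library within the Tet2KO genotype. Over all 18 libraries the median Pearson correlation of log2(CPM + 1) for the 28 pairs was 0.905, from 0.718 to 0.992, and the median Spearman correlation was 0.786. These points share genotype, library and depth, and the members were chosen for that genotype difference. Over the 8 Tet2KO libraries alone the median Pearson correlation was 0.008, from -0.741 to 0.990, and the median Spearman correlation was 0.024. ENSMUST00000098689.6 and ENSMUST00000117405.1 gave the lowest value there. Tet2KO RP library d held the highest level of the first of these and the lowest of the second among the Tet2KO RP libraries.

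**Figure D3:**
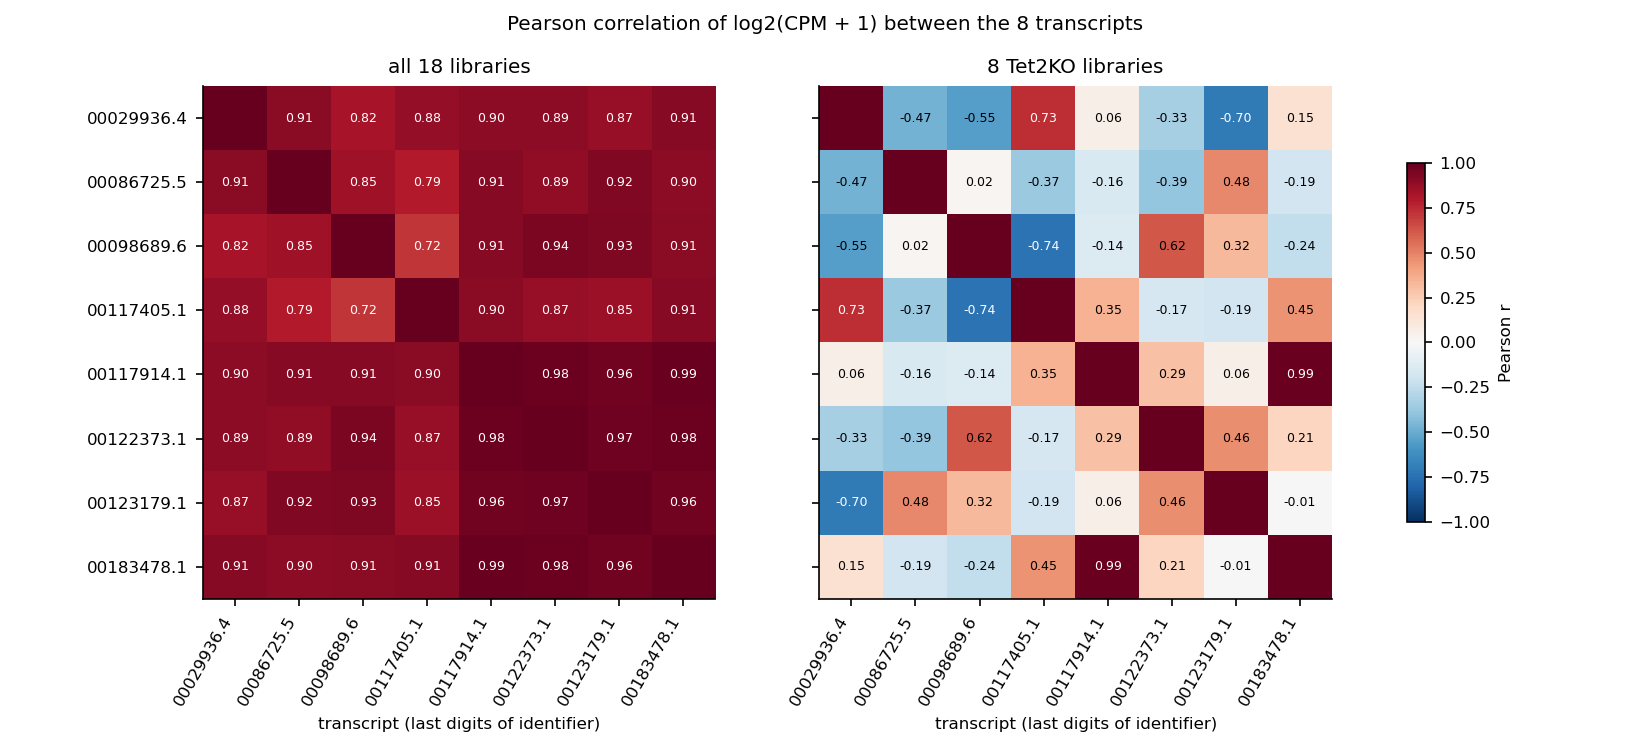
Pearson correlation of log2(CPM + 1) for each pair of the 8 transcripts, over all 18 libraries on the left and over the 8 Tet2KO libraries on the right; rows and columns carry the last digits of the identifiers and colour runs from -1 to 1. Values are high throughout on the left, and on the right the pair ENSMUST00000117914.1 and ENSMUST00000183478.1 stands out at 0.99.

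ENSMUST00000117914.1 and ENSMUST00000183478.1 were the exception, with correlations of 0.990 (Pearson) and 0.976 (Spearman) over the 8 Tet2KO libraries. The ratio of their counts was 1.66, 1.69, 1.57 and 1.68 in Tet2KO HSC replicates 1 to 4 and 1.69, 1.51, 1.76 and 1.88 in Tet2KO RP libraries a to d. Its highest value was 1.25 times its lowest. For the other 27 pairs that spread ran from 2.50-fold to 2426-fold. Summed over the 8 Tet2KO libraries, the counts were 4229 and 2521, a ratio of 1.68. In the other 10 libraries they were 46 and 10, a ratio of 4.60 that rests on few counts. Whether the pair shares exons or reads was not tested, since the identifiers could not be placed on a gene.

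**Figure D4:**
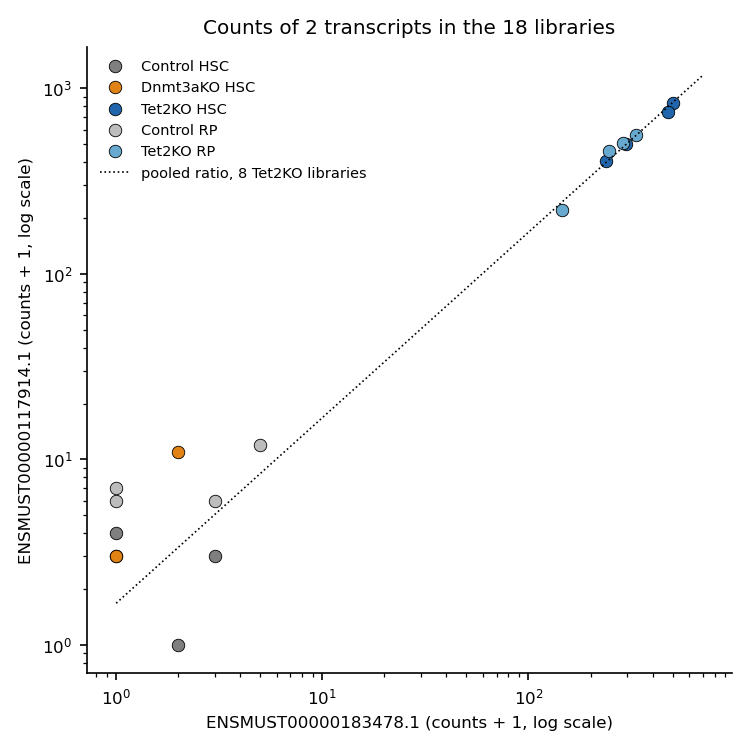
Counts plus 1 of ENSMUST00000117914.1 against ENSMUST00000183478.1 in the 18 libraries, both axes log; colours are groups and the dotted line is the pooled ratio of 1.68 from the 8 Tet2KO libraries. Tet2KO points lie close to the line, and the other 10 libraries cluster at low counts.

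The spread among Tet2KO libraries differed by transcript. In Tet2KO HSCs the highest library was 1.64 to 3.28 times the lowest for each of the 8. In Tet2KO RPs this range ran from 1.20 for ENSMUST00000123179.1 to 13.0 for ENSMUST00000098689.6 and 186 for ENSMUST00000117405.1. Tet2KO RP library d was the lowest of its group for ENSMUST00000029936.4 and ENSMUST00000117405.1, and the highest for ENSMUST00000086725.5, ENSMUST00000098689.6 and ENSMUST00000123179.1. Its 41928 transcripts at equal depth were the fewest of the 4 Tet2KO RP libraries, whose highest was 44910.

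The 2 transcripts outside the 8 with the profile most like the mean of the members over the 18 libraries were ENSMUST00000074680.7, with a Pearson correlation of 0.995, and ENSMUST00000178598.2. The members' own correlations with that mean, to which each contributes, ran from 0.905 to 0.989. ENSMUST00000074680.7 was at 4.97 ± 0.525 CPM in Control HSCs, 5.47 ± 1.24 in Dnmt3aKO HSCs and 1560 ± 292 in Tet2KO HSCs (SD, n = 3, 3 and 4). It was at 8.59 ± 3.43 CPM in Control RPs and 1727 ± 525 in Tet2KO RPs (n = 4 each). Like ENSMUST00000029936.4, it was on in every Control library, but no Dnmt3aKO library exceeded 6.89 CPM.

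ENSMUST00000178598.2 was at 1.12 ± 0.144 CPM in Control HSCs, 1.00 ± 0.705 in Dnmt3aKO HSCs and 75.9 ± 5.54 in Tet2KO HSCs. It was at 2.02 ± 1.29 CPM in Control RPs and 99.3 ± 21.5 in Tet2KO RPs. Neither transcript was called in Dnmt3aKO against Control HSCs, with log2 fold changes of 0.13 (SE 0.35, edgeR adjusted p = 0.990) and -0.23 (SE 0.57, adjusted p = 0.988). In all, 10 transcripts outside the 8 reached a correlation of 0.9 with the mean profile.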

How the data were processed

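The authors deposited raw read counts per Ensembl transcript, 138835 transcripts in 36 columns. Build mm10 and the tools STAR 2.0.4, HTSeq 0.8.0 and edgeR 3.9 stand in the submitters' processing notes. The counts are labelled as made by exon and transcript name on a GENCODE annotation. How reads that match several transcripts were counted is not given in the sources used here. Of the columns, 18 matched the RNA libraries and 18 matched no sample and were not used. HSC columns carry no cell type and were taken as HSCs because the others carry the RP name. The 18 ATAC samples were not analysed. Members and lists were chosen with earlier results of these data known. Lists needing gene names were not applied.

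Transcripts were filtered with filterByExpr (minimum count 10, total 15), scaled by TMM and fitted with group as the only term over all 18 libraries in edgeR 4.0.16 (R 4.3.3, quasi-likelihood test). A call is a p under 0.05 after adjustment over 26820 transcripts by Benjamini-Hochberg. DESeq2 1.42.0 was an alternative. Computed CPM are TMM-scaled, and the SE of a fold change comes from its F statistic. Intervals are exact conditional 95% intervals of counts, and with floors cover counting error only. All 8 members are named, plus the 2 other tested transcripts most correlated with their mean profile. The fit was run on simulated counts with known changes, set in transcripts with expected counts in every group. That run does not cover near absent Control levels, and its outcome is not given here. No replicate pair agreed within sampling noise.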

Additional observations from a re-analysis of the deposited data

Results flagged for a closer look

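ENSMUST00000029936.4 stood at 71.3 CPM in Tet2KO RP library d, far from the other 3 Tet2KO RP libraries at 139 to 151 CPM. The gap to the nearest of them was 0.852 of the range of the group. Of 23 groups of 4 libraries checked in this way, this was the sole one with such a gap, and chance gives about 1 in 20.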

How the results depend on the processing

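The fits, thresholds and libraries were varied in turn. Of the 8 transcripts called higher in Tet2KO than in Control HSCs, HSC libraries alone gave 4, and 5 with a replicate block. Those fits called 15 and 10 of 23632 tested transcripts. The range was 5 to 8 over fits that each left out 1 library. It was 5 without Control HSC replicate 2 or without replicate 3, where 18 of 30019 and 24 of 29790 tested transcripts were called. Calls were lost most often for ENSMUST00000123179.1 (9 of 26 alternatives) and ENSMUST00000098689.6 (6 of 26). Without and with the block, Dnmt3aKO against Control HSCs gave 0 of 8 and 0 of 23632, so nothing is read from it. Dnmt3aKO against Tet2KO HSCs gave 4 of 8, and 11 and 8 of 23632. The 8 pairs of same-numbered HSC libraries correlated at 0.05 to 0.291 in their deviations from the group means: at 0.238 to 0.291 among the 3 libraries numbered 4 and at 0.05 to 0.114 in the other 5 pairs. Pairs of different number ran from -0.228 to 0.175, and 5 of 10 libraries correlated best with one of their own number. Not every same-numbered pair exceeded 0.1, so the numbers were not taken to pair the libraries. In Tet2KO against Control RPs, ENSMUST00000098689.6 was not called without Control RP replicate d (edgeR adjusted p = 0.0561). That fit called 7 of 8, and 27 of 26439 tested transcripts. ENSMUST00000117405.1 was filtered out of the fit of RPs alone. Dnmt3aKO against Control HSCs gave 2 of 8 with no filter and 1 of 8 with DESeq2. Dnmt3aKO against Tet2KO HSCs gave 8 of 8 with no filter and with DESeq2. Tet2KO RPs against Tet2KO HSCs gave 1 of 8 without the HSC libraries numbered 4. The causes were not tested. Calls over all transcripts were more numerous with no filter and with DESeq2: 1001 and 677 against 53 in Tet2KO against Control HSCs, 241 and 120 against 36 in RPs, 291 and 174 against 4 in Dnmt3aKO against Control HSCs, 752 and 552 against 37 in Dnmt3aKO against Tet2KO HSCs, 951 and 1078 against 485 in Tet2KO RPs against Tet2KO HSCs, and 241 and 14 against 0 in the interaction.

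Signs changed for some log2 fold changes that were not called in the fit reported. ENSMUST00000029936.4 in Dnmt3aKO against Control HSCs was at -0.14 without the HSC libraries numbered 4, and from -0.50 to 3.00 with 1 library left out. ENSMUST00000122373.1 there ran from -0.12 to 0.75. In Tet2KO RPs against Tet2KO HSCs, ENSMUST00000086725.5 was at -0.01 with no filter and from -0.19 to 0.35 with 1 library left out. ENSMUST00000117914.1 was at 0.02 without the HSC libraries numbered 4 and ran from -0.22 to 0.29, and ENSMUST00000183478.1 ran from -0.30 to 0.22.

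The level for on moved the count of members on per library. Control HSCs had 5.67 at 1 count or more, 2.33 at 0.5 CPM and 0.333 at 5 CPM. Dnmt3aKO HSCs had 5.67 at 1 count or more and 1 at 5 CPM, and Tet2KO HSCs 7.50 at 5 CPM. Control RPs had 6.25 at 1 count or more, 2.50 at 10 counts, 4.75 at 0.5 CPM, 0 at 5 CPM and 4.25 at equal depth. The median correlation among members was 0.008 in the 8 Tet2KO libraries. Depth limits the Control levels of the 4 transcripts with at most 3 Control HSC counts, whose ratios are known only within wide counting intervals.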

Other observations

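In all, 13 transcripts were called higher in Tet2KO than in Control in both HSCs and RPs with edgeR: the 8 members, the 2 transcripts of most like profile and 3 more. In the main edgeR fit none of the 13 was called in Dnmt3aKO against Control HSCs. Only 0.0149% of all tested transcripts were called there, so nothing is read from this. DESeq2 called the member ENSMUST00000086725.5 there, and 0.663% of all tested transcripts. With no filter, edgeR called 2 of the 8 members, and 291 of 80388 transcripts. Outside the 8, 12 transcripts, 1 of them among these 13, were off in every Control and on in every Tet2KO library of both cell types, at mean Tet2KO HSC levels of 1.24 to 17.9 CPM, and 4 of them reached a correlation of 0.9 with the members' mean profile. These counts describe the libraries the members were chosen from.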
